A study of Mus musculus with 48 samples.

Results

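Glucose transport, glycolysis and glycogen turnover were followed through 39 genes in 4 muscles of newborn mice, chosen by gene symbol from the deposited count tables, which together held 17490 genes. All 39 were found once in each of the 4 tables and all passed the filter on low counts in every comparison, so each was tested everywhere. The set holds 3 glucose transporters, 2 hexokinases, 10 genes of upper and 7 of lower glycolysis, 5 of lactate and glycerol phosphate metabolism, 6 of glycogen breakdown and 6 of glycogen synthesis. The study asked which messenger RNAs change in newborn muscle on developmental loss of Myh3, which encodes the embryonic form of the myosin heavy chain. RNA came from the diaphragm and from 3 limb muscles, quadriceps, gastrocnemius and tibialis anterior, of C57BL/6 neonates at postnatal day 0. Each muscle had 6 libraries titled MyH3delta/delta (here KO) and 6 titled MyH3+/+ with a wild-type genotype (here WT), 48 libraries in 8 groups. Nothing in the labels tells what stretch of the gene was deleted, in which cells, or whether the libraries of a group came from separate animals, so p-values measure the spread between these libraries. Nor is it told whether the 4 muscles came from the same animals.

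Skeletal muscle takes up glucose through GLUT1, which sets basal entry and is common before birth, and through GLUT4, which moves to the surface on insulin or contraction and becomes the main transporter as muscle matures. Hexokinase traps the sugar as glucose phosphate, which is split to pyruvate by glycolysis or stored as glycogen. Muscle uses its own isoforms for many steps, among them muscle phosphofructokinase, beta enolase, muscle phosphoglycerate mutase and muscle glycogen phosphorylase, and fibres that contract fast and briefly are known for high levels of them. The diaphragm has to contract without pause from birth onward.

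Levels are counts scaled to library size with TMM factors (CPM), given per group as mean ± SD over 6 libraries or as the lowest, median and highest library. Changes are log2 fold changes ± SE from edgeR's quasi-likelihood test, and p-values were adjusted by Benjamini-Hochberg across every gene tested, with 0.05 as the threshold. Libraries held 11.9 M to 24.3 M counts, with a median of 16.1 M. Myh3, the targeted gene, had lowest, median and highest levels of 3884, 4711 and 5548 CPM in WT and 3823, 4568 and 5417 CPM in KO quadriceps, and of 3691, 4536 and 5494 CPM and 3138, 3516 and 4006 CPM in tibialis anterior. In gastrocnemius they were 3582, 4414 and 4841 CPM in WT and 4119, 4630 and 5293 CPM in KO, and in diaphragm 760.5, 1240 and 1593 CPM and 1005, 1661 and 2111 CPM. The groups overlapped in every muscle and no change passed in any single muscle (lowest adjusted p = 0.183, edgeR), so the counts of Myh3 do not check the genotype. Of 8 skeletal muscle markers, 7 were measured in all tables, and their summed level was 15100 to 20700 CPM in gastrocnemius, 23600 to 28700 CPM in quadriceps and tibialis anterior, and 23800 to 35700 CPM in diaphragm. The libraries of a group carry the column numbers 0 to 5, and KO columns 0 and 1 stood apart from the other KO libraries in every muscle. Counts of genes called between KO and WT are therefore given with and without these columns, which leaves 4 KO libraries per muscle. Because the columns were picked from these same data, p-values without them may be too small. KO libraries of 1 column number also deviated together across the 4 muscles, and WT libraries did not do so by number. The summed level of 7 liver markers was highest in them among limb libraries, 31.3 to 91.3 CPM against at most 26.2 CPM in the other limb libraries. The summed level of 5 fibroblast markers was also highest in KO columns 0 and 1 among the KO libraries of each muscle. It was 17500 to 30300 CPM in column 0 and 17400 to 25400 CPM in column 1, against 14800 to 24000 CPM over the WT libraries. Col1a1 and Col3a1 made up most of this sum. Pdgfra, another of the 5, went the other way and was lowest in these columns among the KO libraries of each muscle. The part of these markers in any result below was not tested. In bulk tissue, fewer cells of a type and less RNA per cell cannot be told apart.

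Some members share sequence with other genes. Of the distinct 50-base words in its transcripts, Pgk1 shared 53.9% with transcripts of other genes, Pgam1 36.2%, Eno1 26%, Pkm 25.8%, Gapdh 24.7% and Ldhb 21%. No source used here tells how reads that match several places were counted, so the levels of these 6 genes are uncertain. The low count level of Gapdh below is one such value. Ldha, Pfkm, Gpi1 and Aldoa shared 6.43% to 9.03%, Tpi1 4.18%, Phkg1 3.07%, Slc2a3 1.24%, and every other member under 1%. A naming point touches the phosphoglucomutases. The gene called Pgm2 in the tables lies on chromosome 4 and is called Pgm1 in GENCODE, while the gene called Pgm1 in the tables lies on chromosome 5 and is called Pgm2 there. Table names are kept here.

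The promoters of 4 members called between KO and WT over 48 libraries, as given below, are shown because they carry the short motifs searched for over the whole set. Of these only Slc2a1 also passed with 1 value per column number. No link between a motif and a change was tested. Sequences are from the RefSeq promoter table (GRCm38.p6, the same build as mm10), 5′ to 3′ on the strand of the gene, and end at, or a few bases before, the base in front of the gene as the count tables place it. Capitals mark the motif matches. For Slc2a1 (chr4:119108495-119108710, plus strand) the capitals are GCGTG read on the other strand. A further match in its window, to ACGTG, runs past the start of the gene and is not shown whole. For Hk2 (chr6:82774455-82774704, minus strand) the capitals are ACGTG read on the other strand, for Gys1 (chr7:45434589-45434838, plus strand) they are CAGCTG, and for Fbp2 (chr13:62858401-62858650, minus strand) they are CAGCTG and then CACGTG.
Slc2a1: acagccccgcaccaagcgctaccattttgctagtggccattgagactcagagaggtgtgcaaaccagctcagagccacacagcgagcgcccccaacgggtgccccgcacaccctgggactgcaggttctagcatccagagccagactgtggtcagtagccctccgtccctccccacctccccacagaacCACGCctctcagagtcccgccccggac
Hk2: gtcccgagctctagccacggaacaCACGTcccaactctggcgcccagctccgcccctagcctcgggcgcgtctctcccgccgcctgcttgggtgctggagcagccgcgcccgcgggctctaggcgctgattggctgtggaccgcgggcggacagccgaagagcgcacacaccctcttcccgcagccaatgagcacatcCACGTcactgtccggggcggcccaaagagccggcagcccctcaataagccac
Gys1: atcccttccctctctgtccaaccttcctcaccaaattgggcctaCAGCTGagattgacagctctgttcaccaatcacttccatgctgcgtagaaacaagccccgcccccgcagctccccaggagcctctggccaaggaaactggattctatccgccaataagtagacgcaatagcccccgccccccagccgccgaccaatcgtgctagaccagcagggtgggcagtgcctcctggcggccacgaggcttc
Fbp2: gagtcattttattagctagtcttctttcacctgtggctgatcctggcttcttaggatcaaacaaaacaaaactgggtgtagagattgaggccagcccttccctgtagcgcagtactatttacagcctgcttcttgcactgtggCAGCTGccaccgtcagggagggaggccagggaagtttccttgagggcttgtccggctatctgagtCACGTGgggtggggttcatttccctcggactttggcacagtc
Hypoxia-inducible factors are known to bind the core letters ACGTG and also the letters GCGTG. Myc and ChREBP read the E-box CACGTG, in which the first of these motifs lies. Myogenic factors read the E-box CAGCTG. The last motif searched was the TATA box, TATAAA. Windows of 250 bases before a RefSeq start were found for 36 of the 39 members, 52 windows in all, and both strands were searched. ACGTG was present in 40.4% of the member windows and in 16.6% of all 32851 windows of the table. GCGTG was present in 50% against 28.2%, CACGTG in 9.62% against 6.02%, CAGCTG in 17.3% against 13%, and TATAAA in 3.85% against 12.4%. Some windows of the same gene overlap and base composition was not matched, so these shares are a description. No window was found for Slc2a3, Slc2a4 or Gpd1. The Pfkl and Pygl windows lie inside those genes as the tables place them and are not shown.

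In WT muscle the highest levels per kilobase of exon belonged to the muscle isoforms of late and middle glycolysis. Averaged over the WT libraries of the 4 muscles, Eno3 (beta enolase) stood at 1957 CPM per kilobase, Aldoa (aldolase A) at 1786 and Pgam2 (muscle phosphoglycerate mutase) at 1061. Pygm, the muscle phosphorylase that releases glucose phosphate from glycogen, followed at 789, then Tpi1 at 538, Pkm at 402, Pfkm at 372 and Ldha at 319. Slc2a4, which encodes GLUT4, ranked 12th of the 39 with 65.3 CPM per kilobase. Slc2a1, which encodes GLUT1, ranked 33rd with 4.55, and the lowest were Slc2a3 (GLUT3) with 1.09, Pgam1 with 1.06 and Aldoc with 0.964.

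**Figure D1:**
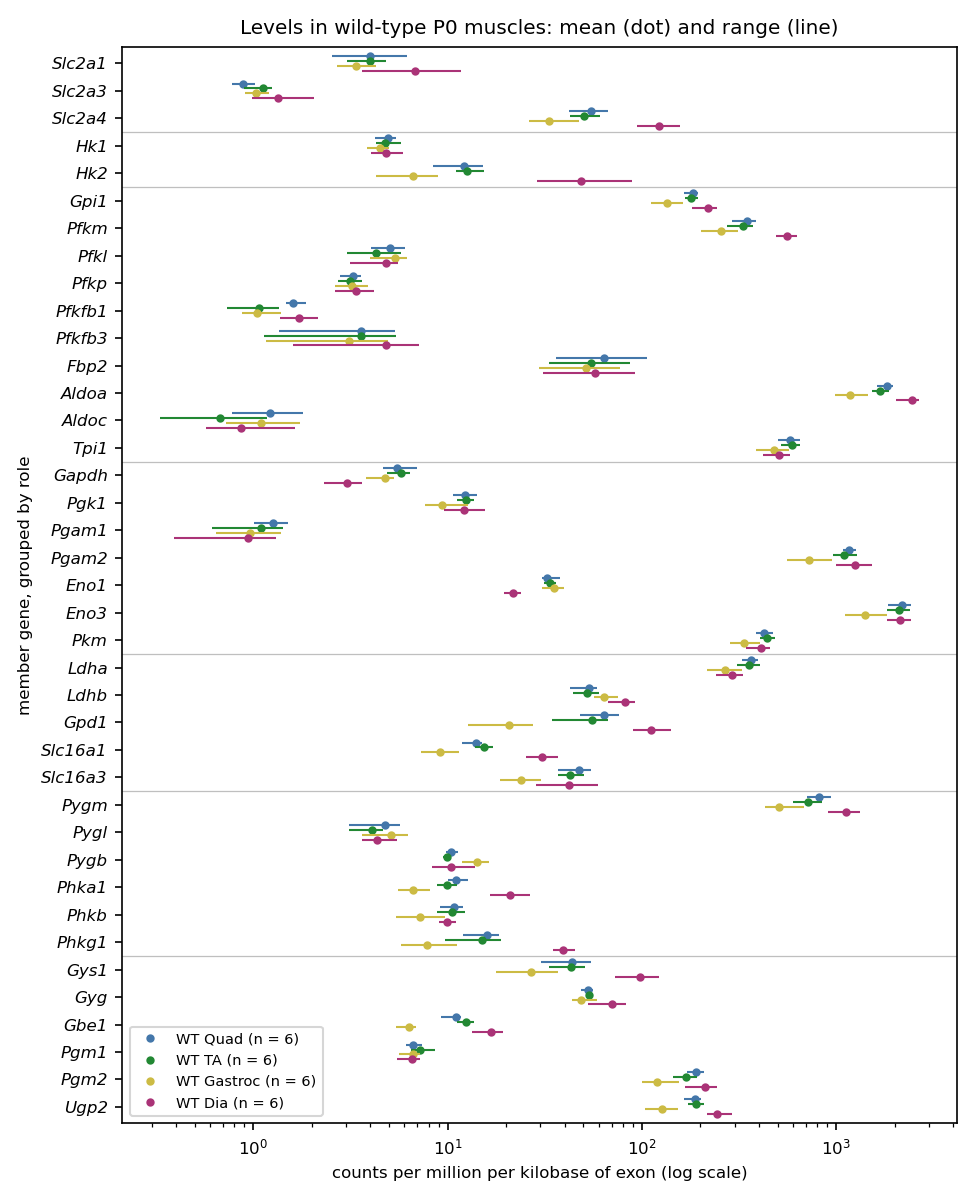
Levels of the 39 genes in the WT libraries of the 4 muscles, in CPM per kilobase of exon on a log axis, grouped by role. Dots are group means of 6 libraries and lines run from the lowest to the highest library. Eno3, Aldoa and Pgam2 stand highest and Aldoc, Pgam1 and Slc2a3 lowest.

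In group means, 1 isoform made up most of the RNA per kilobase within each enzyme family. Pfkm held 96.7% ± 0.270 (SD, n = 6) of the phosphofructokinase level in WT gastrocnemius and 98.6% ± 0.241 in WT diaphragm, the lowest and highest of the WT muscles. Eno3 held 97.5% ± 0.359 of enolase in WT gastrocnemius and 99.0% ± 0.0538 in diaphragm, and Pygm held 96.2% ± 0.728 and 98.7% ± 0.393 of glycogen phosphorylase. The enolase share rests on Eno1, whose level is uncertain because of shared sequence. The balance differed more between muscles for hexokinase. Hk2, the insulin-responsive form, held 58.6% ± 8.01 of the 2 hexokinases in WT gastrocnemius, 70.8% ± 3.90 in quadriceps, 72.5% ± 3.17 in tibialis anterior and 89.8% ± 3.75 in diaphragm. For the monocarboxylate transporters, the share of Slc16a3 was 77.2% ± 2.77 in WT quadriceps and 57.1% ± 9.23 in WT diaphragm, the rest being Slc16a1. The lowest single library had 47% for Hk2 in WT gastrocnemius and 43.5% for Slc16a3 in WT diaphragm.

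Between KO and WT, the 2 main transporters of glucose into muscle had higher mean levels in KO. Over the 4 muscles together the change was 0.87 ± 0.12 on the log2 scale for Slc2a1 and 0.37 ± 0.08 for Slc2a4. That of Slc2a1 passed the test also with 1 value per column number, and that of Slc2a4 did so there only without KO columns 0 and 1. Slc2a1 (chromosome 4, 119108711 to 119137330, plus strand; its promoter is shown above) encodes the basal transporter GLUT1. Its lowest, median and highest levels in quadriceps were 7.26, 10.5 and 17.7 CPM in WT and 16.5, 21.3 and 34.3 CPM in KO. In tibialis anterior they were 8.70, 11.3 and 13.7 CPM in WT and 16.2, 20.8 and 25.8 CPM in KO, so every KO library of tibialis anterior stood above every WT library, while the quadriceps groups overlapped. In gastrocnemius they were 7.72, 9.67 and 12.2 CPM in WT and 10.6, 18.5 and 29.0 CPM in KO, and in diaphragm 10.4, 19.5 and 33.6 CPM and 18.5, 30.8 and 37.1 CPM. The groups overlapped in both, with 2 KO gastrocnemius libraries inside the WT range. The log2 change was 1.04 ± 0.22 in quadriceps (adjusted p = 0.154, edgeR), 0.89 ± 0.14 in tibialis anterior (0.0297), 0.98 ± 0.23 in gastrocnemius (0.14) and 0.58 ± 0.26 in diaphragm (1).

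Slc2a4 (chromosome 11, 69942539 to 69948188, minus strand) encodes the insulin-responsive transporter GLUT4. In quadriceps its lowest, median and highest levels were 147, 191 and 232 CPM in WT and 186, 270.1 and 281 CPM in KO. In tibialis anterior they were 148, 166 and 213 CPM in WT and 215, 259 and 269 CPM in KO, again with no overlap. In gastrocnemius the values were 91.6, 111 and 165 CPM and 126, 139 and 168 CPM, and in diaphragm 329, 427 and 547 CPM and 279, 581 and 693 CPM. The 2 lowest KO libraries were columns 0 and 1 in quadriceps, tibialis anterior and diaphragm, and columns 1 and 4 in gastrocnemius. The log2 changes in single muscles were 0.39 ± 0.12, 0.49 ± 0.10, 0.32 ± 0.13 and 0.29 ± 0.22 in the same order, with edgeR adjusted p of 0.47, 0.0806, 0.639 and 1.

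In single muscles few members passed the test. In quadriceps 0 of 39 passed, beside 0% of all genes tested, with 4 members at an unadjusted p under 0.05 (6.93% of all genes) and 1 by DESeq2 (Slc2a1, adjusted p = 0.00293, beside 0.483%). In tibialis anterior 1 of 39 passed (Slc2a1, higher), beside 0.0973% of all genes and 0.0556% in that direction, and DESeq2 called 2, Slc2a1 and Slc2a4, beside 0.827%. In this muscle 3 members had no overlap between KO and WT libraries, beside 0.637% of all genes. The third of these was Pfkfb1, an isoform of the enzyme that makes and removes the activator of phosphofructokinase. Its lowest KO library, at 5.443 CPM, barely cleared its highest WT library, at 5.441 CPM. In gastrocnemius 0 passed, beside 0.157% of all genes, with 10 members at an unadjusted p under 0.05 (6.7% of all genes) and 1 by DESeq2 (Slc2a1, adjusted p = 0.00694, beside 0.657%), and without KO columns 0 and 1 edgeR again called 0, beside 0.728%. In diaphragm 0 passed, beside 0.0069% of all genes, with 5 members at an unadjusted p under 0.05 (4.17% of all genes) and 0 by DESeq2 (0.207%). In the authors' deposited table Slc2a1 passed 0.05 in quadriceps (log2 ratio 0.574, adjusted p = 0.00275), tibialis anterior (0.665, 7.8e-06) and gastrocnemius (0.539, 0.00741), and Slc2a4 in tibialis anterior (0.424, 0.00179). These 2 genes were the only members that did so there, and the share of all genes that did so is not given here.

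The call of Slc2a1 in tibialis anterior was lost in 7 of 12 fits that left out 1 library, with an adjusted p of up to 0.116 without WT column 2, while DESeq2 and the authors' table kept it. Without KO columns 0 and 1, Slc2a4 passed in quadriceps (0.53 ± 0.10, adjusted p = 0.0384, edgeR), beside 0.893% of all genes, and both transporters passed in tibialis anterior, beside 1.5%, Slc2a4 with 0.59 ± 0.09 (0.011) and Slc2a1 with 0.73 ± 0.14 (0.0239). In diaphragm without these columns Phkg1, the catalytic subunit of muscle phosphorylase kinase, was lower, at -0.69 ± 0.10 (0.0294), beside 0.489% of all genes.

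A fit of all 48 libraries with muscle as a term estimated 1 change shared by the 4 muscles. Of the 39 members 6 rose and 1 fell in KO, beside 7.65% of all genes tested, 4.99% higher and 2.66% lower. The median log2 change of the members was -0.007 and that of all genes 0.004. Because KO libraries of 1 number deviated together, the 48 libraries are not independent and these p-values are too small. With 1 value per gene and column number, the mean log2 CPM of its 4 muscles, 6 KO were compared with 6 WT values in limma. WT columns 0 and 1 joined libraries with and without Y-linked counts, so the spread of the WT values may be understated. In this limma fit 1 of 39 members passed, Slc2a1 at 0.86 ± 0.14 (adjusted p = 0.0334), beside 0.114% of all genes, and 7 had an unadjusted p under 0.05, beside 7.38%. The other 6 members called over 48 libraries had the same direction and adjusted p of 0.242 (Gys1), 0.348 (Slc2a4), 0.562 (Fbp2), 0.565 (Pygl), 0.604 (Hk2) and 0.923 (Pfkl) in limma. The calls given next are those over 48 libraries. Both transporters rose, Slc2a1 by 0.87 ± 0.12 (adjusted p = 2.57e-06, edgeR) and Slc2a4 by 0.37 ± 0.08 (0.00169), and Slc2a3 did not pass (0.14 ± 0.06). Of the 2 hexokinases, Hk2 rose by 0.46 ± 0.15 (0.0453) and Hk1 had 0.14 ± 0.07. In upper glycolysis Pfkl, the liver-type phosphofructokinase, rose by 0.84 ± 0.24 (0.0233), and Fbp2, the muscle fructose bisphosphatase that runs the opposite reaction, changed by -0.57 ± 0.15 (0.0143). None of the 7 lower glycolysis genes and none of the 5 lactate and glycerol phosphate genes passed at adjusted p 0.05 in edgeR, where 13 of all 39 members had an unadjusted p under 0.05, beside 22.3% of all genes. DESeq2 called 8 members, beside 9.34% of all genes, the added one being Slc16a3, the lactate exporter MCT4 (adjusted p = 0.0362). In glycogen metabolism Pygl, the liver-type phosphorylase, rose by 0.34 ± 0.09 (0.00906) and Gys1, muscle glycogen synthase, by 0.28 ± 0.08 (0.0215).

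**Figure D2:**
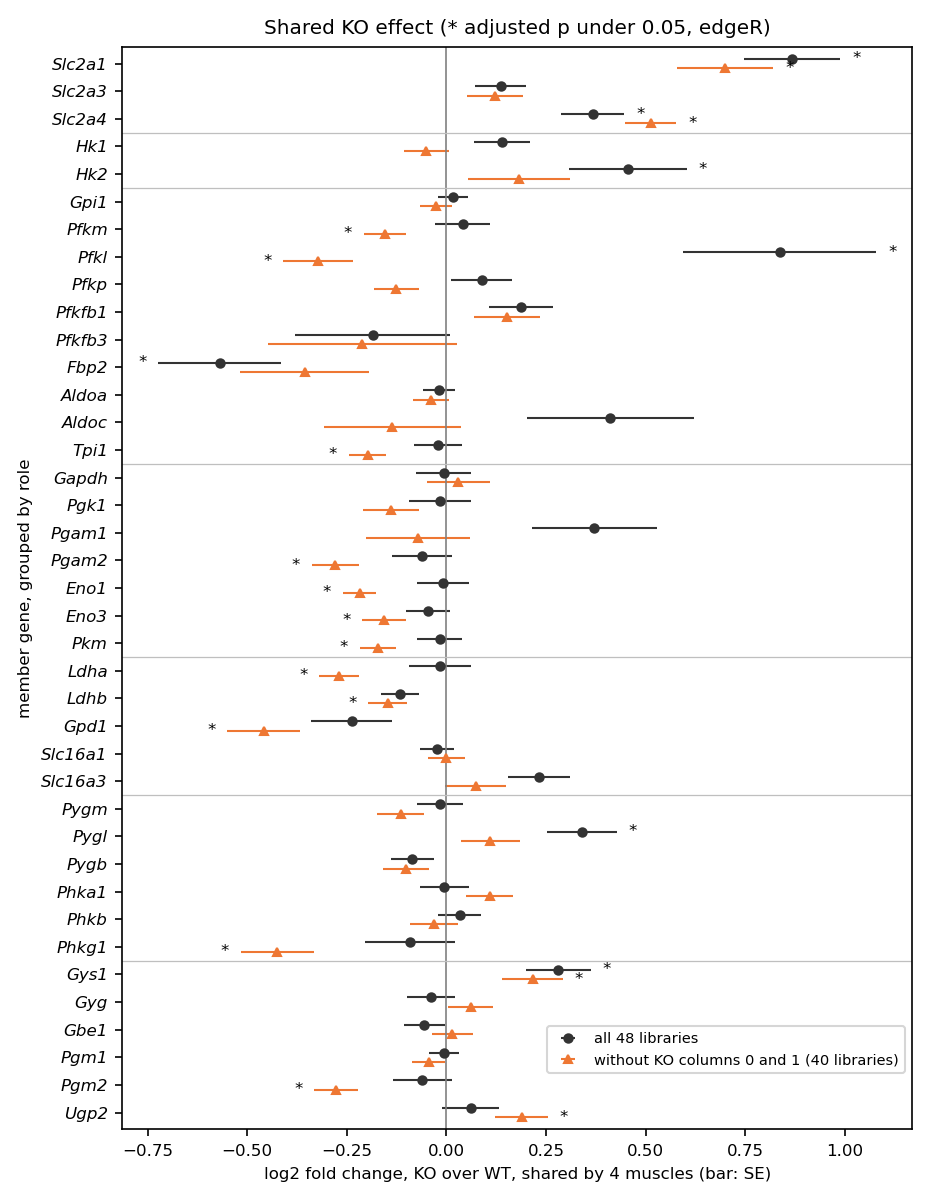
Log2 change of KO over WT shared by the 4 muscles for each of the 39 genes, with all 48 libraries (circles) and without KO columns 0 and 1 (triangles), with bars of 1 SE and a star where the edgeR adjusted p was under 0.05 with libraries taken as independent. Slc2a1, Slc2a4 and Gys1 lie above 0 in both fits, and Pfkl changes sign.

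Leaving out KO columns 0 and 1 in the 4 muscles changed which members passed. The columns were picked from these same data and leaving them out can narrow the KO spread, so these p-values may be too small. Of the 7, Slc2a1 (0.70 ± 0.12, adjusted p = 2.47e-05, edgeR), Slc2a4 (0.51 ± 0.06, 1.43e-07) and Gys1 (0.22 ± 0.08, 0.0274) kept their direction and their call. Hk2 (0.18 ± 0.13, 0.289), Pygl (0.11 ± 0.07, 0.266) and Fbp2 (-0.36 ± 0.16, 0.0886) kept their direction and lost it. Pfkl reversed to -0.32 ± 0.09 (0.0041). In this fit 16 members passed, 4 higher and 12 lower, beside 31.3% of all genes tested, 15.8% higher and 15.5% lower. The 12 that were lower included enzymes all along the path: Pfkm, Pfkl, Tpi1, Pgam2, Eno1, Eno3, Pkm, Ldha, Ldhb, Gpd1, Pgm2 and Phkg1. Their changes ran from -0.15 ± 0.05 for Ldhb to -0.46 ± 0.09 for Gpd1, the cytosolic glycerol phosphate dehydrogenase. The fourth higher gene was Ugp2, which makes the UDP-glucose used by glycogen synthase, with 0.19 ± 0.07. With 1 value per column number and without these columns, 8 members passed in limma, beside 7.93% of all genes. These were Slc2a1 (0.71 ± 0.14, adjusted p = 0.0126) and Slc2a4 (0.53 ± 0.08, 0.00387), both higher, and Pgam2, Eno1, Ldha, Gpd1, Phkg1 and Pgm2, all lower.

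The levels of Hk2 by library show where these columns lay. Hk2 in quadriceps had lowest, median and highest levels of 50.1, 74.3 and 90.3 CPM in WT and 83.3, 92.7 and 163 CPM in KO, with KO columns 0 and 1 at 154 and 163. In tibialis anterior the values were 66.0, 74.2 and 91.6 CPM and 78.0, 95.6 and 167 CPM, and in gastrocnemius 25.4, 38.7 and 53.3 CPM and 35.6, 48.5 and 112 CPM, with the same 2 columns highest in both. In diaphragm they were 171, 257 and 531 CPM in WT and 148, 233 and 563 CPM in KO, where columns 0 and 1 lay inside the range of the others and column 2 was highest. The log2 changes were 0.63 ± 0.18, 0.59 ± 0.17, 0.70 ± 0.28 and -0.08 ± 0.34 in quadriceps, tibialis anterior, gastrocnemius and diaphragm, none past the threshold.

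Pfkl split more widely. Its lowest, median and highest levels were 17.7, 22.8 and 26.6 CPM in WT and 13.4, 19.2 and 93.3 CPM in KO quadriceps, and 13.4, 19.2 and 25.3 CPM and 10.9, 17.7 and 84.5 CPM in tibialis anterior. They were 17.4, 24.4 and 27.0 CPM and 15.2, 24.2 and 102 CPM in gastrocnemius, and 13.9, 22.6 and 24.5 CPM and 14.7, 18.5 and 55.5 CPM in diaphragm. KO columns 0 and 1 held the 2 highest values in every muscle, 50.5 CPM at the least, while no other library passed 27.0 CPM. The log2 changes with all libraries were 0.89 ± 0.45, 0.98 ± 0.49, 1.00 ± 0.43 and 0.47 ± 0.33 in the order used above.

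Fbp2 (chromosome 13, 62836884 to 62858400, minus strand; its promoter is shown above) had lowest, median and highest levels of 47.9, 69.9 and 141 CPM in WT and 30.6, 54.1 and 81.7 CPM in KO quadriceps. In tibialis anterior they were 43.9, 58.9 and 116 CPM and 25.7, 55.5 and 77.0 CPM, in gastrocnemius 38.9, 59.9 and 102 CPM and 23.0, 44.2 and 61.7 CPM, and in diaphragm 40.9, 61.1 and 122 CPM and 29.5, 47.9 and 62.9 CPM. The groups overlapped in every muscle, and KO columns 0 and 1 were the lowest KO libraries in the 3 limb muscles. The log2 changes were -0.58 ± 0.29, -0.42 ± 0.30, -0.61 ± 0.26 and -0.66 ± 0.28, all negative and none past the threshold in a single muscle.

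Gys1 (its promoter is shown above) had lowest, median and highest levels of 145, 213 and 261 CPM in WT and 222, 239 and 299.8 CPM in KO quadriceps, and 159, 208 and 244 CPM and 216, 247 and 308 CPM in tibialis anterior. They were 84.9, 135 and 178 CPM and 126, 162 and 214 CPM in gastrocnemius, and 347, 470.0 and 587 CPM and 355, 562 and 649.8 CPM in diaphragm. KO columns 0 and 1 were the 2 highest KO libraries in the limb muscles and the 2 lowest in diaphragm. Pygl had 11.9, 19.1 and 21.7 CPM in WT and 15.1, 20.0 and 27.5 CPM in KO quadriceps, 11.9, 16.4 and 17.9 CPM and 15.7, 20.8 and 26.4 CPM in tibialis anterior, 13.9, 20.1 and 23.9 CPM and 17.4, 22.8 and 32.0 CPM in gastrocnemius, and 13.9, 15.8 and 21.1 CPM and 14.9, 19.1 and 31.9 CPM in diaphragm. Columns 0 and 1 were the highest KO libraries of Pygl in all 4 muscles.

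**Figure D3:**
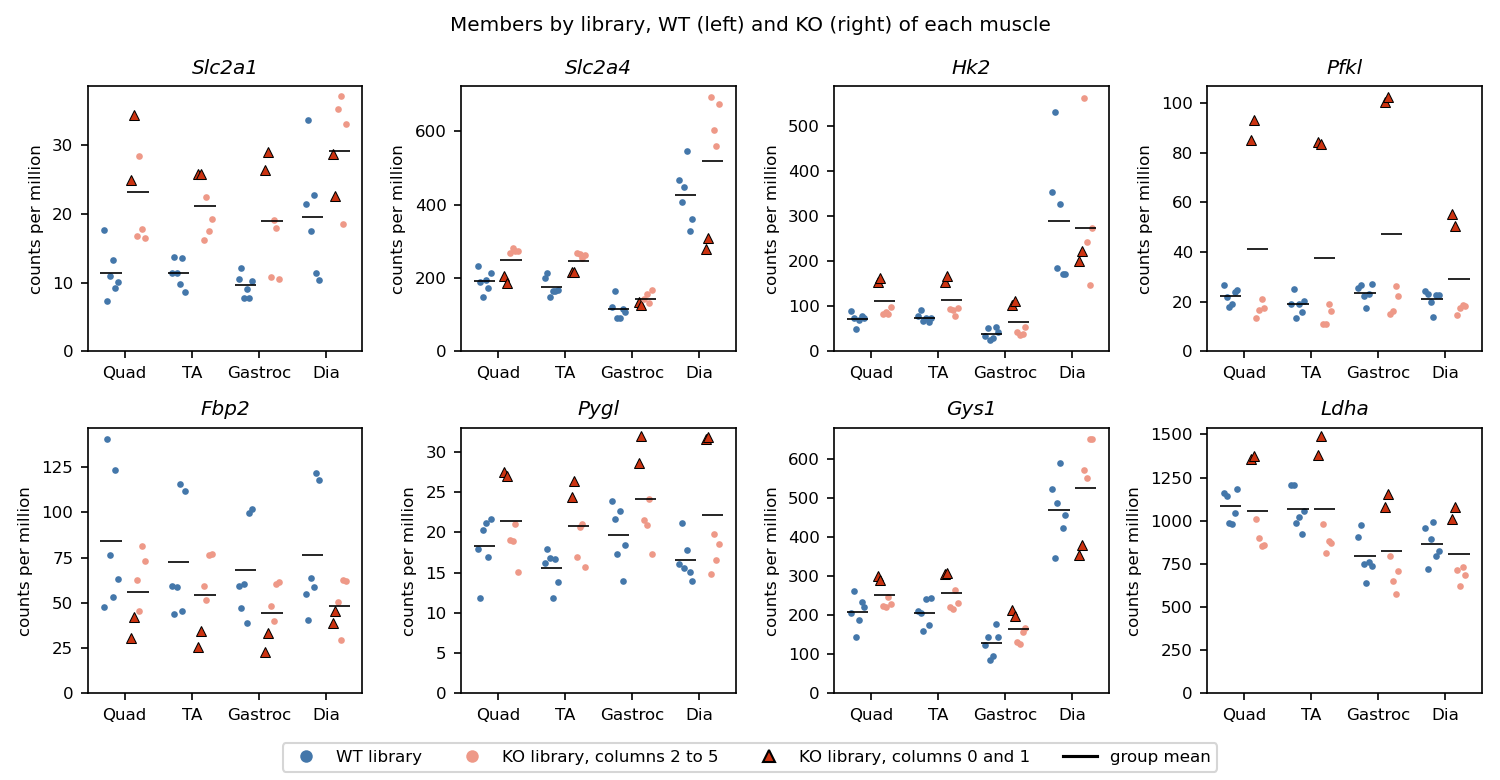
CPM of Slc2a1, Slc2a4, Hk2, Pfkl, Fbp2, Pygl, Gys1 and Ldha in each of the 48 libraries, WT left and KO right in each muscle, with KO columns 0 and 1 as triangles and group means as lines. Pfkl is highest in those columns in every muscle, and Slc2a4 is not.

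Whether the KO change differed among the 4 muscles was tested with an interaction term. No member passed (0 of 39), beside 0.0133% of all genes by edgeR and 0.053% by DESeq2, and without KO columns 0 and 1 the edgeR count was again 0, beside 0.033%. At an unadjusted p under 0.05 there were 2, Gapdh and Pfkfb1, beside 1.67% of all genes. The log2 change was above 0 in all 4 muscles for 11 members and below 0 in all 4 for 3, and without KO columns 0 and 1 for 5 and 17. The share of all genes with 1 sign in the 4 muscles was not computed. KO libraries of 1 column number deviated together, so the signs of the 4 muscles are not independent and these counts are a description.

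In WT diaphragm against the mean of the 3 limb muscles, 20 members were higher and 2 lower. The background was 57% of all genes tested, 29.9% higher and 27.2% lower, so the number of calls was near the background with 20 of the 22 in 1 direction. The median log2 difference of the members was 0.407 and that of all genes 0.002. Libraries of WT diaphragm and of the limb muscles did not overlap for 12 members, beside 15.4% of all genes. Levels of WT and KO libraries are given together below. The marker sum of mesothelium (1 of 4 markers measured) was also higher in diaphragm, at 97.3 to 142 CPM over both genotypes against at most 1.59 CPM in the limb muscles. That of red cells (6 of 8) was 362 to 739 CPM against 98.1 to 279 CPM, without overlap. That of liver (7 of 9) was 81.9 to 10500 CPM against at most 91.3 CPM, with overlap in KO. Their part in these differences was not tested.

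All 3 glucose transporters were higher in WT diaphragm. Slc2a4 averaged 191 ± 29.9 CPM in WT and 248 ± 40.8 in KO quadriceps, 176 ± 24.6 and 248 ± 24.8 in tibialis anterior, 115 ± 27.2 and 143 ± 16.1 in gastrocnemius, and 426 ± 78.7 and 519.5 ± 182 in diaphragm. Its difference between WT diaphragm and limb was 1.44 ± 0.11 (adjusted p = 1.6e-11, edgeR) and every WT diaphragm library stood above every WT limb library. Slc2a1 averaged 11.4 ± 3.68 CPM in WT and 23.1 ± 7.33 in KO quadriceps, 11.4 ± 1.99 and 21.2 ± 4.13 in tibialis anterior, 9.60 ± 1.73 and 18.9 ± 7.67 in gastrocnemius, and 19.5 ± 8.54 and 29.2 ± 7.36 in diaphragm, with a difference of 0.87 ± 0.18 (0.000189). Slc2a3, a high-affinity transporter best known from neurons, averaged 6.45 ± 0.646 CPM in WT and 6.92 ± 0.611 in KO quadriceps, 8.10 ± 0.889 and 8.61 ± 1.14 in tibialis anterior, 7.49 ± 0.860 and 9.09 ± 0.937 in gastrocnemius, and 9.67 ± 2.79 and 10.1 ± 1.83 in diaphragm, with 0.41 ± 0.11 (0.00305).

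Hk2 showed the largest difference of the 39 between diaphragm and limb. It averaged 72.7 ± 13.2 CPM in WT and 112 ± 36.9 in KO quadriceps, 75.2 ± 9.35 and 113 ± 36.9 in tibialis anterior, 39.7 ± 11.4 and 64.7 ± 34.2 in gastrocnemius, and 291 ± 143 and 275 ± 147 in diaphragm. The difference in WT was 2.28 ± 0.17 (adjusted p = 2.49e-11, edgeR), again with no overlap among WT libraries. Hk1, the widely expressed hexokinase, averaged 42.0 ± 3.59 CPM in WT and 46.5 ± 11.5 in KO quadriceps, 40.6 ± 4.67 and 41.6 ± 9.48 in tibialis anterior, 38.5 ± 4.16 and 44.4 ± 10.3 in gastrocnemius, and 41.0 ± 6.09 and 45.9 ± 6.61 in diaphragm, and its difference was 0.02 ± 0.08 (0.819).

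Of the 10 upper glycolysis genes 4 were higher in WT diaphragm. Gpi1, which turns glucose phosphate into fructose phosphate, averaged 819 ± 44.5 CPM in WT and 831 ± 54.3 in KO quadriceps, 804 ± 49.1 and 834 ± 63.4 in tibialis anterior, 604 ± 86.0 and 619 ± 62.1 in gastrocnemius, and 988 ± 93.4 and 957 ± 104 in diaphragm. Pfkm, the rate-setting muscle phosphofructokinase, averaged 1022 ± 109.8 CPM in WT and 1080 ± 237 in KO quadriceps, 977 ± 118 and 1048 ± 252 in tibialis anterior, 754 ± 114 and 813 ± 181 in gastrocnemius, and 1653 ± 140.0 and 1510 ± 258 in diaphragm. Aldoa averaged 5018 ± 353 CPM in WT and 4981 ± 219 in KO quadriceps, 4646 ± 389.9 and 4774 ± 256 in tibialis anterior, 3238 ± 493 and 3241 ± 229 in gastrocnemius, and 6769 ± 616 and 6281 ± 789 in diaphragm. The differences of these 3 between diaphragm and limb were 0.43 ± 0.06, 0.86 ± 0.08 and 0.68 ± 0.07 (edgeR adjusted p = 2.48e-06, 6.12e-10 and 5.88e-09). Pfkfb1 averaged 6.40 ± 0.576 CPM in WT and 6.22 ± 1.29 in KO quadriceps, 4.31 ± 1.00 and 6.42 ± 0.955 in tibialis anterior, 4.20 ± 0.761 and 4.30 ± 0.849 in gastrocnemius, and 6.87 ± 1.25 and 7.92 ± 1.14 in diaphragm, with a difference of 0.50 ± 0.12 (0.000841).

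The other 6 did not pass in WT. Pfkfb3, the inducible isoform of the same bifunctional enzyme, averaged 25.1 ± 9.43 CPM in WT and 21.3 ± 10.8 in KO quadriceps, 25.1 ± 10.1 and 23.1 ± 12.8 in tibialis anterior, 21.7 ± 9.10 and 15.7 ± 8.01 in gastrocnemius, and 33.8 ± 14.6 and 35.8 ± 12.2 in diaphragm. Its difference was 0.50 ± 0.28 in WT (adjusted p = 0.13, edgeR) and passed in KO at 0.87 ± 0.32 (0.0284). Tpi1, which interconverts the triose phosphates, averaged 1281 ± 128 CPM in WT and 1287 ± 223 in KO quadriceps, 1305 ± 118 and 1319 ± 247 in tibialis anterior, 1052 ± 149 and 1039 ± 204 in gastrocnemius, and 1116 ± 118 and 1044 ± 202 in diaphragm. Pfkp, the platelet-type phosphofructokinase, averaged 30.6 ± 3.35 CPM in WT and 32.9 ± 6.93 in KO quadriceps, 29.7 ± 2.87 and 29.8 ± 5.62 in tibialis anterior, 30.4 ± 4.56 and 35.6 ± 12.9 in gastrocnemius, and 31.6 ± 5.02 and 31.9 ± 5.13 in diaphragm. Their differences were -0.11 ± 0.08 and 0.07 ± 0.09. Aldoc, the brain-type aldolase, averaged 3.96 ± 1.40 CPM in WT and 4.53 ± 1.70 in KO quadriceps, 2.21 ± 1.11 and 2.67 ± 1.46 in tibialis anterior, 3.58 ± 1.39 and 4.62 ± 1.71 in gastrocnemius, and 2.83 ± 1.29 and 5.14 ± 6.02 in diaphragm. For Aldoc, and for Pfkl and Fbp2, whose levels are given above, the differences were -0.12 ± 0.26, -0.02 ± 0.12 and 0.03 ± 0.27.

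Lower glycolysis went both ways. Pgam2 averaged 982 ± 67.2 CPM in WT and 929.8 ± 213 in KO quadriceps, 922 ± 109 and 919 ± 226 in tibialis anterior, 608 ± 120.2 and 574 ± 151 in gastrocnemius, and 1052 ± 169 and 994 ± 201 in diaphragm, and was higher in WT diaphragm by 0.36 ± 0.09 (adjusted p = 0.00152, edgeR). Gapdh and Eno1, whose levels are uncertain because of shared sequence, were the 2 members lower in diaphragm. Gapdh averaged 22.8 ± 3.19 CPM in WT and 25.0 ± 4.97 in KO quadriceps, 23.7 ± 2.23 and 25.0 ± 2.76 in tibialis anterior, 19.6 ± 2.27 and 20.9 ± 4.18 in gastrocnemius, and 12.6 ± 2.04 and 9.69 ± 1.87 in diaphragm, with -0.80 ± 0.09 (8.69e-08). Eno1, the enolase of most other tissues, averaged 175 ± 14.6 CPM in WT and 175 ± 37.5 in KO quadriceps, 181 ± 9.25 and 183 ± 42.2 in tibialis anterior, 190.3 ± 18.7 and 192 ± 40.4 in gastrocnemius, and 117 ± 8.80 and 111 ± 26.2 in diaphragm, with -0.64 ± 0.06 (6.98e-10). WT libraries did not overlap for either.

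The other 4 of lower glycolysis did not pass in WT diaphragm against limb. Eno3 averaged 3791 ± 422 CPM in WT and 3729 ± 399 in KO quadriceps, 3674 ± 433 and 3725 ± 403 in tibialis anterior, 2449 ± 472 and 2372 ± 349.5 in gastrocnemius, and 3697 ± 409.8 and 3345 ± 526 in diaphragm. Pkm, pyruvate kinase of muscle, averaged 1110 ± 93.7 CPM in WT and 1112 ± 191 in KO quadriceps, 1141 ± 83.0 and 1167 ± 219.5 in tibialis anterior, 869 ± 119.8 and 869.8 ± 162 in gastrocnemius, and 1061 ± 104 and 982 ± 139.7 in diaphragm. Pgk1, phosphoglycerate kinase, averaged 27.5 ± 3.27 CPM in WT and 25.3 ± 5.90 in KO quadriceps, 27.9 ± 2.05 and 31.6 ± 8.85 in tibialis anterior, 21.0 ± 4.46 and 18.0 ± 4.34 in gastrocnemius, and 27.2 ± 4.43 and 28.9 ± 4.64 in diaphragm. These had differences of 0.19 ± 0.09, 0.04 ± 0.07 and 0.11 ± 0.10. Pgam1, the brain-type mutase, averaged 2.30 ± 0.345 CPM in WT and 2.95 ± 1.44 in KO quadriceps, 2.01 ± 0.497 and 2.24 ± 0.845 in tibialis anterior, 1.76 ± 0.504 and 2.85 ± 1.83 in gastrocnemius, and 1.71 ± 0.634 and 2.07 ± 0.515 in diaphragm, with -0.23 ± 0.20.

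Of the lactate and glycerol phosphate genes 3 of 5 were higher in WT diaphragm. Ldhb, the lactate dehydrogenase subunit of heart and oxidative fibres, averaged 83.7 ± 10.2 CPM in WT and 77.9 ± 5.34 in KO quadriceps, 82.0 ± 8.31 and 84.4 ± 10.2 in tibialis anterior, 101 ± 10.4 and 87.6 ± 9.09 in gastrocnemius, and 128 ± 14.1 and 111 ± 15.5 in diaphragm. Gpd1 averaged 189 ± 32.9 CPM in WT and 149 ± 42.4 in KO quadriceps, 163 ± 40.6 and 169 ± 52.7 in tibialis anterior, 61.1 ± 15.6 and 44.8 ± 7.21 in gastrocnemius, and 331 ± 59.8 and 286 ± 91.5 in diaphragm. Slc16a1, the transporter MCT1 that takes lactate up, averaged 61.6 ± 5.01 CPM in WT and 61.0 ± 5.24 in KO quadriceps, 68.0 ± 5.61 and 62.9 ± 3.64 in tibialis anterior, 40.6 ± 6.30 and 42.7 ± 2.41 in gastrocnemius, and 136 ± 18.1 and 131 ± 14.6 in diaphragm. The differences were 0.53 ± 0.07, 1.42 ± 0.13 and 1.29 ± 0.07 (edgeR adjusted p = 8.44e-07, 1.49e-09 and 1.01e-13), with no overlap of WT libraries for Gpd1 and Slc16a1. Ldha, the subunit of glycolytic muscle, averaged 1084 ± 91.1 CPM in WT and 1059 ± 244 in KO quadriceps, 1066 ± 117 and 1070 ± 291 in tibialis anterior, 795 ± 121 and 827 ± 237 in gastrocnemius, and 865 ± 102 and 806 ± 189 in diaphragm. Slc16a3 averaged 254 ± 39.2 CPM in WT and 290.4 ± 41.3 in KO quadriceps, 226 ± 25.8 and 268 ± 41.0 in tibialis anterior, 127 ± 22.2 and 173 ± 39.6 in gastrocnemius, and 225 ± 66.7 and 232 ± 50.5 in diaphragm. Neither passed, with -0.17 ± 0.08 and 0.22 ± 0.12.

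In glycogen breakdown 3 of 6 were higher, the muscle forms of phosphorylase and of 2 phosphorylase kinase subunits. Pygm averaged 2613 ± 275 CPM in WT and 2624 ± 300.1 in KO quadriceps, 2307 ± 302 and 2508 ± 341 in tibialis anterior, 1634 ± 336 and 1605 ± 266 in gastrocnemius, and 3600 ± 439 and 3193 ± 387 in diaphragm. Phka1, the muscle regulatory alpha subunit of the kinase that activates phosphorylase, averaged 69.2 ± 6.42 CPM in WT and 68.2 ± 10.2 in KO quadriceps, 61.8 ± 6.16 and 67.5 ± 11.0 in tibialis anterior, 41.7 ± 5.71 and 38.3 ± 4.80 in gastrocnemius, and 132 ± 27.0 and 131 ± 28.9 in diaphragm. Phkg1 averaged 51.4 ± 9.07 CPM in WT and 46.9 ± 17.9 in KO quadriceps, 48.5 ± 12.9 and 57.2 ± 19.4 in tibialis anterior, 25.2 ± 6.31 and 24.2 ± 8.46 in gastrocnemius, and 127 ± 13.6 and 96.4 ± 29.4 in diaphragm. Their differences were 0.75 ± 0.09, 1.23 ± 0.08 and 1.68 ± 0.12 (edgeR adjusted p = 9.08e-08, 4.88e-12 and 1.82e-11), without overlap of WT libraries for the 2 kinase subunits. Pygl averaged 18.3 ± 3.65 CPM in WT and 21.4 ± 4.90 in KO quadriceps, 15.6 ± 2.23 and 20.9 ± 4.14 in tibialis anterior, 19.7 ± 3.77 and 24.1 ± 5.38 in gastrocnemius, and 16.6 ± 2.58 and 22.2 ± 7.58 in diaphragm. Pygb, the brain-type phosphorylase, averaged 49.97 ± 2.65 CPM in WT and 46.2 ± 3.04 in KO quadriceps, 47.6 ± 1.37 and 45.6 ± 2.62 in tibialis anterior, 67.9 ± 7.36 and 62.8 ± 5.15 in gastrocnemius, and 50.1 ± 10.5 and 48.04 ± 13.4 in diaphragm. Phkb, the beta subunit of the kinase, averaged 79.9 ± 8.80 CPM in WT and 81.5 ± 9.18 in KO quadriceps, 77.9 ± 10.04 and 84.9 ± 13.3 in tibialis anterior, 53.4 ± 10.8 and 54.2 ± 8.83 in gastrocnemius, and 74.0 ± 7.38 and 71.9 ± 5.32 in diaphragm. The differences of these 3 did not pass, at -0.09 ± 0.12, -0.11 ± 0.08 and 0.09 ± 0.09.

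In glycogen synthesis 5 of 6 were higher in WT diaphragm. Gys1 averaged 209 ± 40.1 CPM in WT and 252 ± 35.0 in KO quadriceps, 206 ± 34.4 and 258 ± 41.7 in tibialis anterior, 129 ± 34.7 and 166 ± 35.2 in gastrocnemius, and 469.6 ± 82.9 and 526 ± 129.8 in diaphragm. Gbe1, the branching enzyme, averaged 59.1 ± 5.07 CPM in WT and 52.0 ± 6.41 in KO quadriceps, 66.3 ± 4.98 and 59.2 ± 11.8 in tibialis anterior, 33.7 ± 2.89 and 33.9 ± 4.33 in gastrocnemius, and 90.0 ± 11.1 and 97.3 ± 11.6 in diaphragm. Ugp2 averaged 578 ± 41.5 CPM in WT and 590.2 ± 93.6 in KO quadriceps, 583 ± 39.05 and 606 ± 169 in tibialis anterior, 391 ± 53.0 and 372 ± 40.9 in gastrocnemius, and 745 ± 82.9 and 870.3 ± 283 in diaphragm. The differences were 1.41 ± 0.12, 0.82 ± 0.06 and 0.55 ± 0.07 (edgeR adjusted p = 4.9e-10, 3.09e-11 and 1.06e-07), and WT libraries of the 2 sides did not overlap for Gys1 and Ugp2. Gyg, glycogenin, which primes each glycogen particle, averaged 123 ± 6.35 CPM in WT and 118 ± 11.4 in KO quadriceps, 125 ± 3.59 and 132 ± 13.1 in tibialis anterior, 114 ± 12.3 and 103 ± 9.35 in gastrocnemius, and 164 ± 28.2 and 160.4 ± 52.6 in diaphragm. Pgm2 of the tables averaged 553 ± 45.1 CPM in WT and 523 ± 117 in KO quadriceps, 494 ± 56.2 and 517 ± 127 in tibialis anterior, 349 ± 62.8 and 332 ± 84.3 in gastrocnemius, and 614 ± 73.2 and 549 ± 108 in diaphragm. These 2 were higher by 0.44 ± 0.07 (5.91e-06) and 0.43 ± 0.08 (9.51e-05). Pgm1 of the tables averaged 17.4 ± 1.24 CPM in WT and 17.8 ± 1.07 in KO quadriceps, 18.8 ± 1.89 and 17.8 ± 1.30 in tibialis anterior, 17.2 ± 1.75 and 17.0 ± 1.36 in gastrocnemius, and 17.1 ± 1.59 and 17.5 ± 1.09 in diaphragm and had -0.06 ± 0.07.

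**Figure D4:**
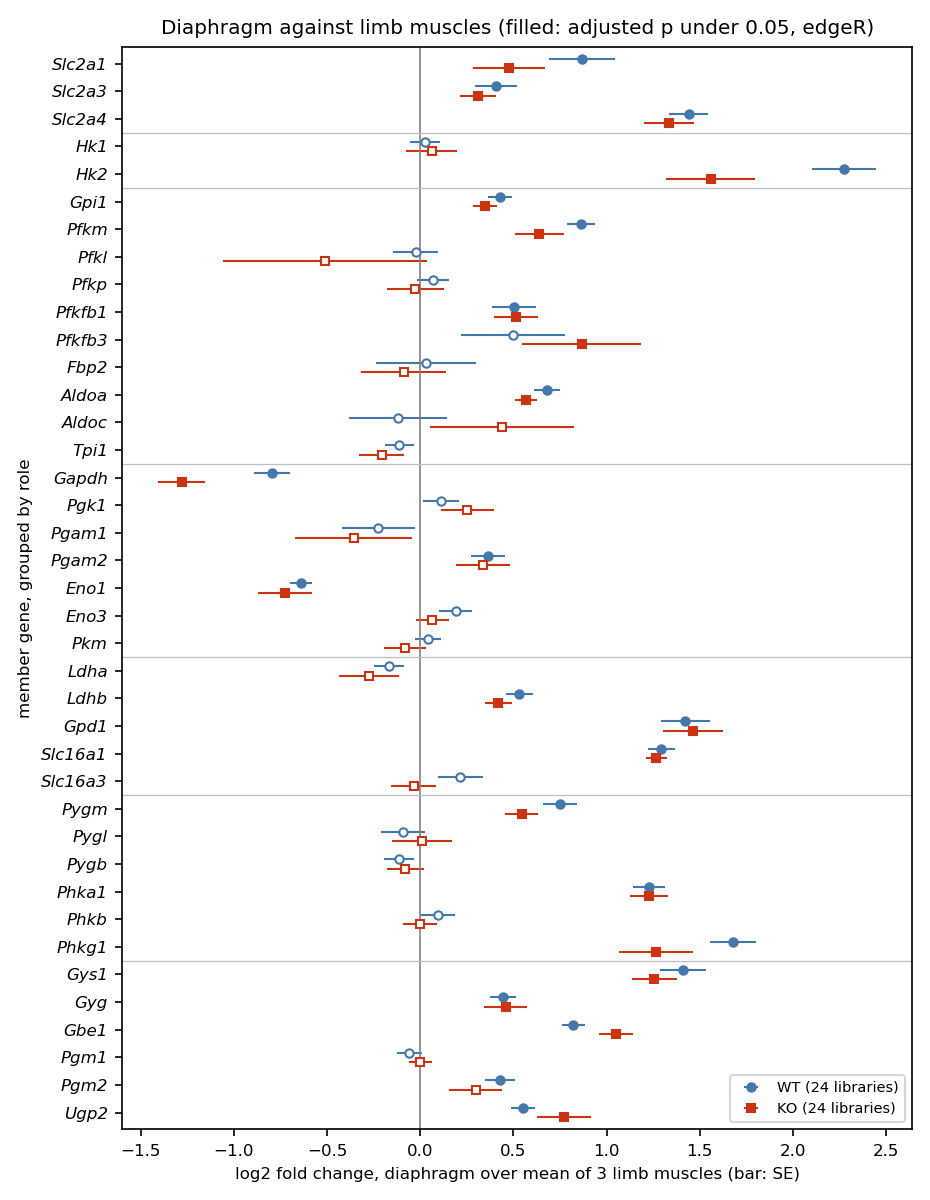
Log2 difference of diaphragm over the mean of the 3 limb muscles for the 39 genes, in WT (circles) and KO (squares) libraries, with bars of 1 SE and filled symbols where the adjusted p was under 0.05. Hk2 is highest in both, and Gapdh and Eno1 are the members called lower in both.

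The KO libraries gave a like count, 19 higher and 2 lower, beside 49.3% of all genes, 26.3% higher and 23% lower. Here 5 members did not overlap, beside 10% of all genes. The members without overlap in KO were Gapdh, Slc16a1, Phka1, Gys1 and Gbe1. Hk2 differed by 1.56 ± 0.24 and Slc2a4 by 1.33 ± 0.13 in KO. Without KO columns 0 and 1, 24 members passed, 20 higher and 4 lower, beside 47.1% of all genes, 24.8% higher and 22.3% lower. With the column number as a block, all 21 kept their call and 27 passed, 22 higher and 5 lower, beside 66.9% of all genes. Slc2a3 and Pfkfb3 lost their call without these columns, with 0.14 ± 0.11 (0.32) and 0.78 ± 0.47 (0.189). Slc2a1 in KO (0.48 ± 0.19, adjusted p = 0.0417, edgeR) lost its call in 13 of 24 fits that left out 1 library. The difference between the genotypes in this contrast was tested directly, and 0 members passed, beside 0% of all genes by edgeR and 0.0133% by DESeq2, with 2 at an unadjusted p under 0.05, beside 3.05%. Without KO columns 0 and 1 edgeR again called 0 members, beside 0.0727%.

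Among the WT limb muscles, the gastrocnemius stood apart. Tibialis anterior was higher than gastrocnemius for 22 members and lower for 2, beside 18.9% of all genes tested, 11.5% higher and 7.32% lower. Quadriceps was higher for 23 and lower for 1, beside 14.6% of all genes, 9.31% higher and 5.27% lower. These comparisons share the gastrocnemius libraries. Libraries did not overlap for 12 members in the first, beside 9.43% of all genes, and for 16 in the second, beside 7.5%. The median differences of the members were 0.407 and 0.447, those of all genes -0.018 and -0.008.

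In tibialis anterior the largest difference from gastrocnemius was that of Gpd1, 1.43 ± 0.18, and in quadriceps it was 1.63 ± 0.18. Slc2a4 was higher by 0.62 ± 0.14 in tibialis anterior and 0.74 ± 0.14 in quadriceps, and Hk2 by 0.93 ± 0.23 and 0.88 ± 0.23. Upper glycolysis had 4 of 10 members higher in tibialis anterior and 5 of 10 in quadriceps. Gpi1 differed by 0.42 and 0.45, Pfkm by 0.39 and 0.45, Aldoa by 0.53 and 0.64, and Tpi1 by 0.32 and 0.29. The fifth in quadriceps was Pfkfb1 at 0.61. Lower glycolysis had the same 4 of 7 higher in each, Pgk1 at 0.42 and 0.40, Pgam2 at 0.61 and 0.70, Eno3 at 0.60 and 0.64, and Pkm at 0.41 and 0.36.

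Around lactate, Ldha was higher by 0.44 in tibialis anterior and 0.46 in quadriceps, Slc16a1 by 0.76 and 0.61, and Slc16a3 by 0.84 and 1.00. Ldhb went the other way, lower in tibialis anterior at -0.28 ± 0.09 (adjusted p = 0.0314, edgeR), and had -0.26 in quadriceps, which did not pass. Of glycogen breakdown, Pygm differed by 0.51 and 0.69, Phka1 by 0.58 and 0.74, Phkb by 0.55 and 0.59, and Phkg1 by 0.96 and 1.03. Pygb, the brain-type form, was the member lower in both, at -0.50 and -0.43. Glycogen synthesis had Gys1 at 0.69 and 0.71, Gbe1 at 0.99 and 0.82, Pgm2 at 0.52 and 0.67, and Ugp2 at 0.59 and 0.57.

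Beside these differences, the skeletal muscle marker sum was lower in gastrocnemius, as given above. The sum of 5 Schwann cell markers had a higher median there, with overlap. Its lowest, median and highest levels were 93.3, 349 and 504 CPM in WT gastrocnemius. In WT tibialis anterior they were 59.7, 108 and 132 CPM, and in WT quadriceps 80.3, 223 and 420 CPM. The part of these markers in the differences was not tested. Leaving out 1 WT library ended the call of Ldhb in 5 of 24 fits of tibialis anterior against gastrocnemius, and those of Pgk1 in 5 and Tpi1 in 7 of 24 fits of quadriceps against gastrocnemius. Quadriceps and tibialis anterior differed in 1 member, Pfkfb1 (0.57 ± 0.15, adjusted p = 0.0437, edgeR), beside 2.06% of all genes and 0.863% higher, and in 12 of 24 fits without 1 library it lost its call.

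**Figure D5:**
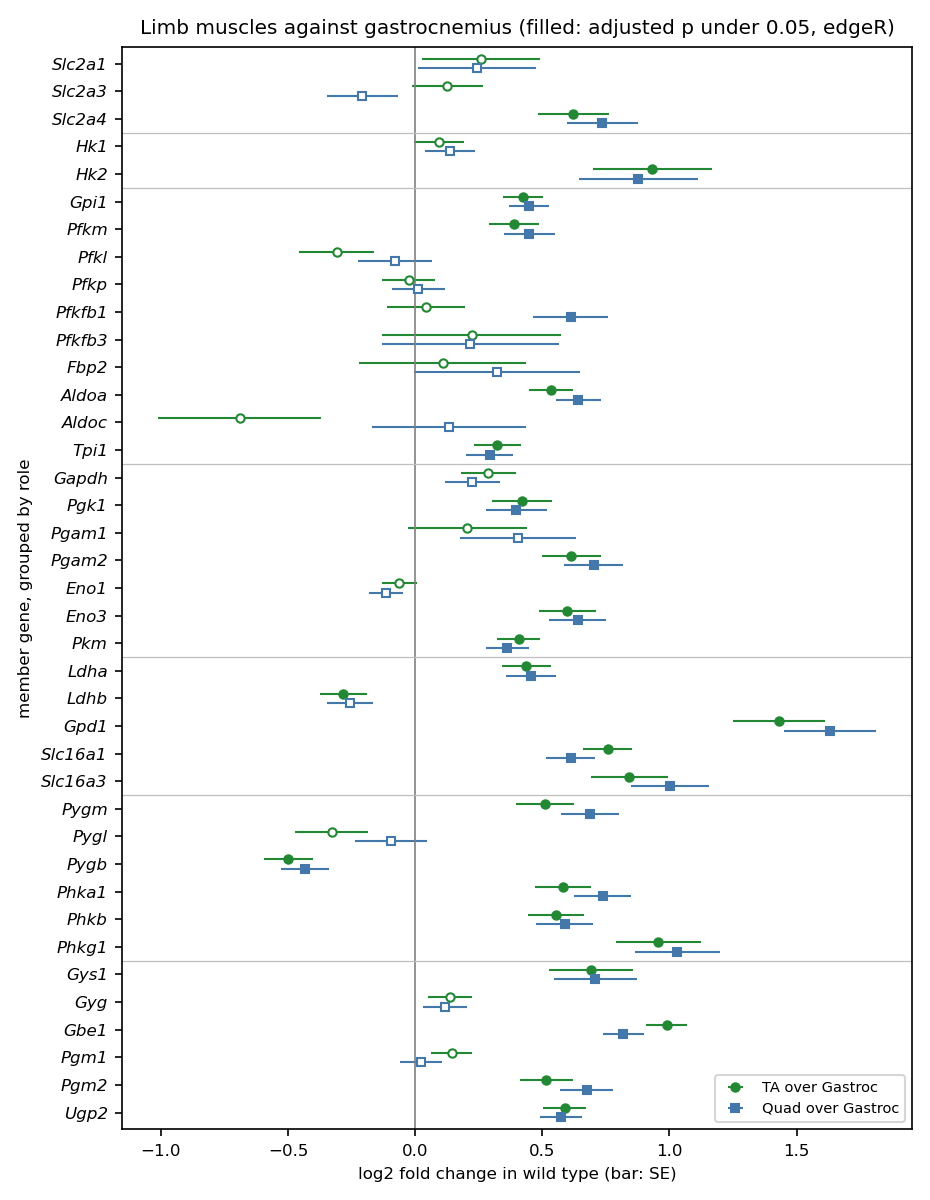
Log2 differences between WT limb muscles for the 39 genes, tibialis anterior (circles) and quadriceps (squares) each over gastrocnemius, with bars of 1 SE and filled symbols where the adjusted p was under 0.05. Most genes lie above 0 in both, led by Gpd1, and Pygb lies below 0 in both.

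Around these members, 100 other genes of sugar metabolism were listed in 8 groups, of which 88 to 93 were tested per comparison. In single muscles 0 of them passed between KO and WT by edgeR, beside 0% to 0.157% of all genes. At an unadjusted p under 0.05 there were 11 in quadriceps, 4 in gastrocnemius and 5 in diaphragm, beside 6.93%, 6.7% and 4.17% of all genes. There were 11 in tibialis anterior, where that share is not given here. DESeq2 called 2 in tibialis anterior and 1 in gastrocnemius, beside 0.827% and 0.657%, and 0 in quadriceps and diaphragm, beside 0.483% and 0.207%. Without KO columns 0 and 1 edgeR called 0 in quadriceps, 1 in tibialis anterior, 1 in gastrocnemius and 2 in diaphragm, beside 0.893%, 1.5%, 0.728% and 0.489% of all genes. Among these were Pdk4, at 0.74 in gastrocnemius, and Bnip3 and Bpgm, at 0.74 and -0.48 in diaphragm. In the fit over 48 libraries 7 rose and 1 fell, beside the 7.65% of all genes. Of 11 hypoxia-responsive genes 4 rose, Ndrg1 at 0.32, Egln3 at 0.68, Bnip3 at 0.43 and Ddit4 at 0.54. Of 13 transcriptional regulators 3 rose, among them Myc at 0.34 and Mlx at 0.28. Bpgm, which makes the oxygen-releasing bisphosphoglycerate of red cells, was the 1 that fell (Bpgm at -0.24). The summed level of 6 red cell markers had medians of 176 CPM in KO and 210 CPM in WT quadriceps, 153 and 181 CPM in tibialis anterior, 163 and 161 CPM in gastrocnemius, and 382 and 467 CPM in diaphragm, with overlap in each. Its part in the change of Bpgm was not tested. No gene of GLUT4 traffic, glycogen regulation, pyruvate oxidation, the pentose phosphate pathway or monocarboxylate transport passed. Without KO columns 0 and 1, 21 were higher and 12 lower, beside 31.3% of all genes. The named genes kept their direction and call there, from 0.21 for Myc to 0.90 for Egln3, and -0.25 for Bpgm. With 1 value per column number 0 of the 89 tested passed in limma, beside 0.114% of all genes, with 8 at an unadjusted p under 0.05, beside 7.38%. Without these columns 9 passed there, beside 7.93%.

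In WT diaphragm against limb 45 of these genes were higher and 10 lower, beside 57% of all genes. Pyruvate entry and oxidation had 11 higher and 1 lower of 14, led by Pdk2 at 1.16, Pdha1 at 0.89, Mpc2 at 0.75 and Pdk4 at 2.21, the first and last being kinases that switch pyruvate dehydrogenase off. GLUT4 traffic and other transporters had 5 higher and 1 lower of 11, led by Tbc1d4 at 1.01, Lnpep at 0.89, Tbc1d1 at 0.69 and Slc2a12 at 0.74. Glycogen regulators had 9 higher and 4 lower of 18, led by Epm2a at 0.84, Phka2 at -0.48, Ppp1r3c at 1.00 and Gaa at 0.50. Hypoxia-responsive genes had 6 higher and 1 lower of 11, led by Bnip3 at 1.38, Egln3 at 1.75, Vegfa at 0.65 and Egln1 at 0.35, and transcriptional regulators 7 higher and 1 lower of 13, led by Mlxipl at 1.81, Epas1 at 0.65, Esrra at 0.88 and Myc at -0.33. Other isoforms had 5 higher of 11, among them Ldhd at 1.89, Fbp1 at 3.10 and Pfkfb2 at 0.37. Fbp1 is a liver enzyme, and the liver marker sum moved with it, from 387 to 6120 CPM in WT diaphragm against at most 26.2 CPM in WT limb libraries. The 4 monocarboxylate genes went 2 up and 2 down, Slc16a7 at 1.16, Slc16a12 at -0.80, Bsg at 0.22 and Emb at -0.42, and 0 of 7 pentose phosphate genes passed. In KO diaphragm against limb 36 were higher and 9 lower, beside 49.3% of all genes, and without KO columns 0 and 1 38 were higher and 15 lower, beside 47.1%. There the leading genes of pyruvate entry were Pdk2 at 1.07, Pdha1 at 0.93, Pdhx at 0.87 and Dlat at 0.86 on the log2 scale, those of transport were Aspscr1 at 0.46, Tbc1d4 at 0.74, Lnpep at 0.92 and Tbc1d1 at 0.60, those of glycogen regulation Epm2a at 0.73, Phka2 at -0.47, Ppp1r3c at 0.99 and Gaa at 0.44, and those of hypoxia Bnip3 at 1.35, Egln3 at 1.47, Ankrd37 at -0.86 and Ddit4 at 1.00. The regulators were led by Mlxipl at 1.67, Epas1 at 0.71, Esrra at 0.93 and Mlxip at 0.37, the other isoforms that passed included Ldhd at 1.61, Fbp1 at 4.05 and Pfkfb2 at 0.37, and the monocarboxylate genes were Slc16a7 at 1.36 and Slc16a12 at -0.56.

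Against WT gastrocnemius, 23 of the 100 were higher and 7 lower in tibialis anterior, beside 18.9% of all genes, and 22 were higher and 2 lower in quadriceps, beside 14.6%. Pyruvate entry had 10 higher and 1 lower of 14 in tibialis anterior, led by Pdhb at 0.69, Mpc2 at 0.70, Pdk3 at 0.81 and Pdhx at 0.78, and 9 higher in quadriceps, led by Pdhb at 0.56, Pdha1 at 0.60, Mpc2 at 0.54 and Pdhx at 0.62. The transport genes that passed were Tbc1d1 at 1.48, Tbc1d4 at -0.42 and Lnpep at 0.66 in tibialis anterior and Tbc1d1 at 0.79, Lnpep at 0.80, Slc2a12 at 0.58 and Tbc1d4 at 0.38 in quadriceps. The glycogen regulators that passed were led by Pgm5 at -0.48, Ppp1r3d at -0.92, Epm2a at 0.45 and Ppp1r3b at -0.92 in tibialis anterior, 2 higher and 3 lower in all, and were Pgm5 at -0.50, Ppp1r3c at 0.61 and Epm2a at 0.40 in quadriceps. Mlxipl, the carbohydrate-responsive factor ChREBP, led the regulators, which were Mlxipl at 1.94, Eya1 at 0.60, Esrra at 0.48 and Epas1 at 0.19 in tibialis anterior and Mlxipl at 1.68, Esrra at 0.42 and Mlxip at 0.43 in quadriceps. The hypoxia genes were Vegfa at 0.67, Adm at -0.68 and Egln1 at 0.21 in tibialis anterior and Egln3 at 0.84 and Adm at -0.54 in quadriceps. The other isoforms were Ldhd at 1.59, Gpd2 at 1.15 and Bpgm at 0.43 in tibialis anterior and Ldhd at 1.41, Gpd2 at 0.80 and Bpgm at 0.48 in quadriceps. Of the monocarboxylate genes Emb, a partner of MCT proteins, was lower in tibialis anterior (Emb at -0.70). Between quadriceps and tibialis anterior 3 were higher and 3 lower, beside 2.06% of all genes, with Tbc1d4 at 0.80 and Tbc1d1 at -0.68 for transport, Pdk3 at -0.57 and Pcx at 0.72 for pyruvate, Ppp1r3d at 0.69 for glycogen and Vegfa at -0.41 for hypoxia.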

How the data were processed

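Counts were read from the deposited tables of 1 comparison per muscle (USeq and DESeq2 output, with mm10 as the build). Each deposited count is a number of unscaled alignments summed across the exons of a gene, each read pair once, per the file headers, and the authors left out genes under 10 counts or flagged for high counts. The submitters' processing notes name Picard, and the aligner was not named in any source read. The authors' log2 ratios and their adjusted p-values, deposited as a score on a negative log10 scale, were copied for single genes only. Other deposited columns gave exonic base pairs and gene identifiers. The 96 columns of the authors' transformed values and FPKM were not used, and 1 line without values in each table was dropped.

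Models were fitted with edgeR 4.0.16 under R 4.3.3, using the quasi-likelihood test after filterByExpr and TMM scaling, over all genes of each comparison, 14383 to 15090 genes, with Benjamini-Hochberg adjustment. The SE is the log2 change over the root of F. Muscle contrasts used the 24 libraries of 1 genotype, and the shared and interaction fits all 48, over the 15192 genes of all 4 tables before filtering. Column numbers were checked for pairing by correlating, across genes, the deviations of libraries from their group means. Equal numbers of different muscles correlated at 0.377 to 0.75 in KO, where 36 of 36 comparisons were closest to their own number, and at -0.411 to 0.661 in WT, with 17 of 36. KO libraries of 1 number were therefore taken as paired, from the data and not from the labels, and 1 value per column number was tested in limma with an intensity trend. In WT quadriceps, Y-linked genes summed to 180 CPM in column 0. In WT tibialis anterior, gastrocnemius and diaphragm they did so in column 1, at 167, 170 and 177 CPM. Columns 0 and 1 of WT thus mix libraries with and without Y-linked counts, so this fit can understate the spread in WT. In KO, Y-linked genes summed to 148 to 223 CPM in columns 2 and 3 of every muscle. Fits without KO columns 0 and 1 kept both of these and had no term for sex. For pairs of replicate libraries, chi-square over its degrees of freedom was 5.06 to 74.1 (120 pairs), so none was a copy. The fits were tested on simulated data. Alternatives were DESeq2 1.42.0, limma 3.58.1 voom with quality weights, other scaling factors, no filter, a covariate from sex-linked genes, the column number as a block, and left-out libraries. Members, lists and tests were chosen with earlier results of these data known. Every member past 0.05 in any comparison is given in every group, as are the others, and up to 4 genes per wider list and comparison by smallest p. Shared 50-base words were counted over GENCODE M21 transcripts. Promoters came from RefSeq (GRCm38.p6).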

Additional observations from a re-analysis of the deposited data

Results flagged for a closer look

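Over the 39 genes and 8 groups, 312 sets of 6 libraries were searched for a library whose gap to its nearest neighbour exceeded Dixon's critical share of the range of the group, which chance passes in about 1 of 20 sets. It found 11 such libraries, 3 of them in KO column 0 or 1. Hk2 stood at 563 CPM in KO diaphragm column 2, above the next library at 274 CPM and a median of 233 CPM. Aldoc stood at 17.1 CPM in KO diaphragm column 0, above 5.25 CPM, and at 5.34 CPM in WT diaphragm column 1, above 2.89 CPM. Pgk1 was high in column 1 of KO quadriceps (37.1 CPM, next 24.5 CPM) and of KO tibialis anterior (48.5 CPM, next 31.4 CPM), and low in KO diaphragm column 3 (20.2 CPM, next 28.3 CPM). Aldoa was low in WT diaphragm column 1, at 5580 CPM beside 6780 CPM. Eno1 was high in WT quadriceps column 1, at 203 CPM beside 177 CPM, and Pfkfb1 in WT quadriceps column 3, at 7.47 CPM beside 6.47 CPM. In KO quadriceps column 3, Ldhb was low at 67.7 CPM beside 76.5 CPM, and Pgm1 of the tables at 15.6 CPM beside 17.9 CPM.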

How the results depend on the processing

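The number of members called between KO and WT depended on the tool and on KO columns 0 and 1. In quadriceps it was 0, and 1 by DESeq2 and 1 without these columns. In tibialis anterior it was 1, with 2 by DESeq2, 2 without the columns, 0 with the sex-linked covariate, 0 with all 48 libraries in 1 fit, and 0 to 2 when 1 library was left out. In gastrocnemius it was 0, with 1 by DESeq2 and 0 to 1 when 1 library was left out, and in diaphragm 0, with 1 without the columns. The shared count of 7 became 16 without the columns, 4 by voom with quality weights, and 6 to 9 when 1 of the 48 libraries was left out, an alternative added after the data were seen. There Hk2 lost its call in 26 of 48 fits and the other 6 in none. Voom kept Slc2a1, Slc2a4, Gys1 and Hk2 and lost Pfkl (0.193, adjusted p = 0.597), Fbp2 (-0.323, 0.14) and Pygl (0.18, 0.143). The shared change of Pfkl reversed to -0.322 without the columns. With the sex-linked covariate the adjusted p of Hk2 in the shared fit was 0.0595 and that of Slc2a1 in tibialis anterior 0.0515. With upper-quartile factors Slc2a1 in KO diaphragm against limb (0.0749) and Tpi1 in quadriceps against gastrocnemius (0.0576) lost their calls. Quadriceps against tibialis anterior gave 0 to 1 when 1 library was left out. For voom, single left-out libraries, the sex-linked covariate and all 48 libraries in 1 fit, the share of all genes called is not given here. Of 567 settings of single called members other than leaving out each library in turn, 19 ended a call and 1 reversed it. These include the fits without KO columns 0 and 1, where the reversal, that of Pfkl, lay. Counts of the other muscle comparisons stayed within 1.5 times their value in every alternative run. With the column number as a replicate block, added after the data were seen, the shared count of 7 became 1 (Slc2a1), and 8 without KO columns 0 and 1. In the comparisons between muscles the block ended no call, though WT libraries did not go together by number, so in WT the block need not follow any pairing. Both tests of a difference between effects had 0 calls without the block, so none could end, and had 0 with it. Between KO and WT of 1 muscle no paired analysis was possible because their numbers did not go together, with 3 of 24 KO libraries closest to the WT library of their number. The depth of 11.9 M counts in the smallest library limits the low members, such as Aldoc and Pfkfb1, most.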

Other observations

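Fbp2 and Slc2a1 ran against each other among WT libraries of a group, a pattern chosen after the values were seen and not tested. In WT quadriceps the libraries with the highest Fbp2, columns 1 and 4 at 141 and 124 CPM beside at most 76.5 CPM in the others, had the lowest Slc2a1, 7.26 and 9.24 CPM beside 10.03 to 17.7 CPM. In WT tibialis anterior the libraries with the highest Fbp2, columns 3 and 5 at 116 and 112 CPM, had 9.87 and 8.7 CPM of Slc2a1, the lowest of the group. In WT diaphragm columns 4 and 5 had 122 and 118 CPM of Fbp2 and 11.4 and 10.4 CPM of Slc2a1, again the lowest. In WT gastrocnemius and in each of the 4 KO groups, 1 of the 2 libraries with the highest Fbp2 was among the 2 with the lowest Slc2a1.

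In the authors' deposited table, the exon that changed most in Gpi1 had a log2 ratio of 1.193 in diaphragm (adjusted p = 9.76e-11, exon chi-square), while the gene as a whole had -0.035. Unlike the other p-values here, a chi-square on counts does not measure the spread between libraries. It thus does not tell whether the exon differed beyond that spread. Gpi1 also shared 8.23% of its 50-base words with other genes. Gpi1 was the 1 member with such a value under 0.05 in any muscle, and the share of all genes with one is not given here.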
